A study of Gallus gallus with 24 samples.

Results

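Genes of liver macrophages and of antigen presentation were followed in livers of growing fat line (FL) and lean line (LL) chickens, namely the 6 genes CD74, CSF1R, CYBB, MARCO, C1QC and GPR183. They were taken from the array by gene symbol and made up 6 of the 6428 symbols in the probe annotation. CD74 had 5 probes on the array, CSF1R had 2 and each of the other genes had 1, so that 11 of 19200 spots were used. Probes of a gene were averaged, and all 6 genes passed the filter on missing values. In the RefSeq gene table of chicken, CD74 and CSF1R lie on the same chromosome with 6 protein-coding genes between them.

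Each of the 24 two-colour cDNA arrays compared whole-liver RNA of 1 FL bird with that of 1 LL bird of the same age. The lines were bred apart for high (FL) or low (LL) abdominal fat weight over 7 generations, and no other treatment is given for either line. Both lines were sampled at 6 ages, every other wk from 1 to 11 wk, with 4 arrays per age. The FL sample was in channel 2 on replicates 2 and 4 of each age and in channel 1 on replicates 1 and 3. The deposited value of a spot is a log ratio of the 2 channels, taken here as log2, so levels within a line cannot be read from it. Neither the base nor the direction of the ratio is stated in the sources used here, and it is not stated whether arrays with swapped dyes had already been turned to 1 direction. In whole liver, fewer cells of a type and less RNA per cell cannot be told apart.

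Macrophages of the liver, the Kupffer cells, line the sinusoids, take up particles and bacteria from portal blood and can present antigen to lymphocytes. CSF1R is the receptor of colony stimulating factor 1, on which macrophages depend, and MARCO is a scavenger receptor that binds bacteria. C1QC encodes a chain of C1q, which starts the classical complement pathway and is made largely by macrophages, while CYBB is the catalytic subunit of the phagocyte NADPH oxidase. CD74 is the invariant chain, which guides MHC class II molecules to the compartment where they are loaded with peptide. GPR183 is a receptor for oxysterols that directs the migration of B cells and dendritic cells, as known mainly from mice.

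Some properties of the arrays bear on these genes. The median of all spots lay between -0.02 and 0.03 on all arrays except 7 wk replicate 1, where it was 0.33. The arrays 7 wk replicate 1 and 11 wk replicate 4 were more alike than any other pair (r = 0.798 over spots, against 0.705 for the next pair). The column of 1 wk replicate 3 did not follow the mean of the others (r = -0.0375 over features with a value on all arrays). That of 1 wk replicate 4 ran against the mean of the others (r = -0.311 over the same features), and its direction is not settled. Calls that were lost without these arrays or with the column of 1 wk replicate 4 turned are named with the result.

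As deposited, the 6 genes differed in sign and in spread. GPR183 had the most negative ratios, with a lowest value of -1.61, a median of -0.79 and a highest value of 0.24, and 21 of its 24 values were below 0. For CYBB the lowest, median and highest values were -1.22, -0.42 and 0.56, with 20 values below 0. C1QC had -0.88, -0.32 and 0.55, with 18 below 0. Thus these 3 genes ran mostly below 0. CD74 followed with -0.76, -0.09 and 0.47 and 17 values below 0. MARCO was split evenly, with 12 values below 0 and a long lower end (-1.24, 0.00 and 0.46). CSF1R ran the other way, with only 5 values below 0 and the narrowest range (-0.23, 0.12 and 0.38). The SD between arrays was 0.56 for GPR183, 0.50 for CYBB, 0.39 for C1QC, 0.38 for MARCO and 0.32 for CD74, whereas the median over all 14855 tested features was 0.17. CSF1R, with an SD of 0.14, was below that median.

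**Figure D1:**
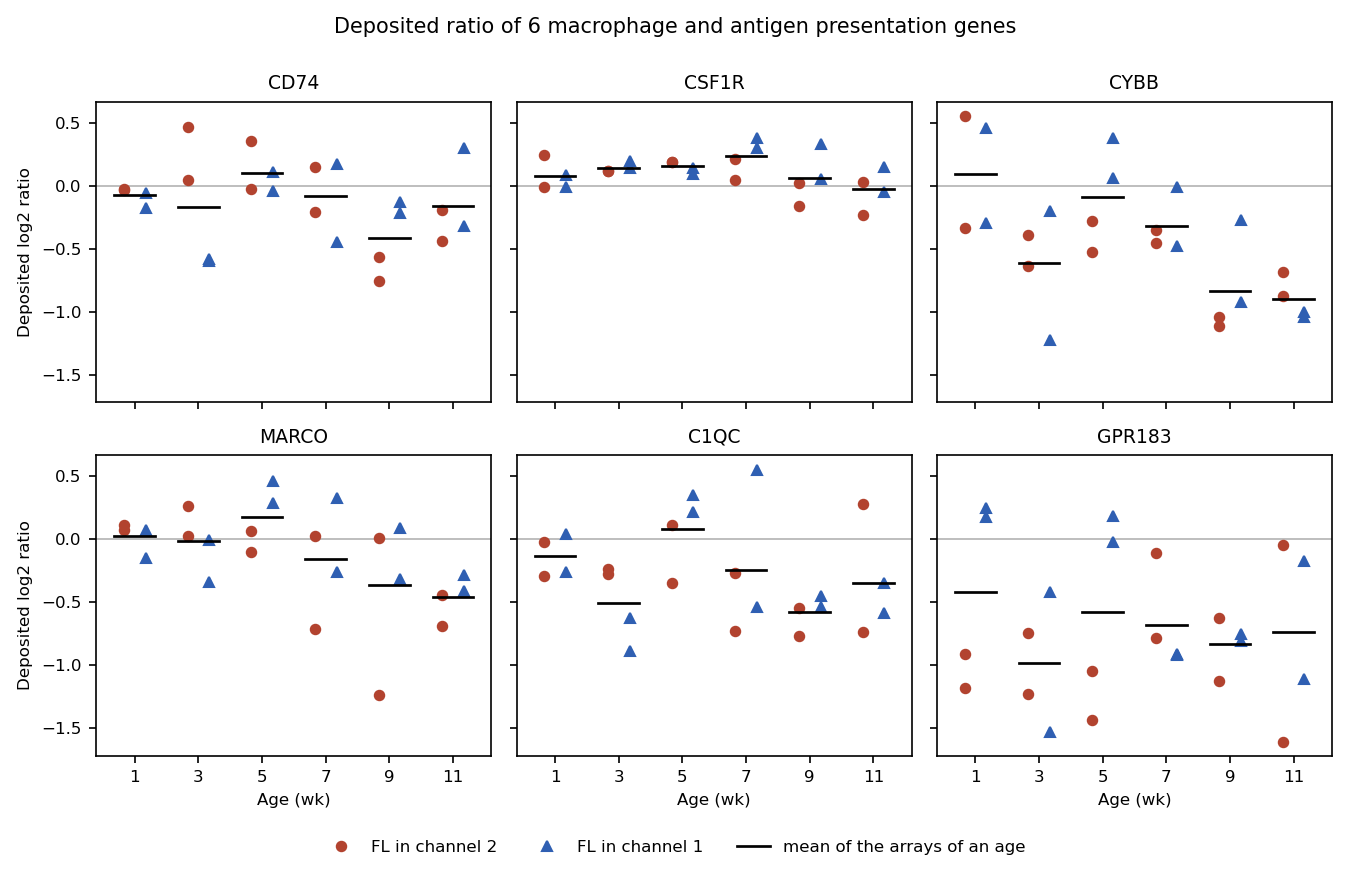
Deposited log2 ratio (y axis) of each gene on the 24 arrays by age in wk (x axis), where circles are arrays with FL in channel 2, triangles arrays with FL in channel 1 and bars the mean of the 4 arrays of an age. CYBB lies below 0 on all 8 arrays of 9 and 11 wk, and GPR183 on all arrays with FL in channel 2.

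If the columns are ratios of fixed channels, a difference between the lines turns its sign when the dyes are swapped. For these genes the mean ratio did not. GPR183 averaged -0.90 ± 0.48 on the 12 arrays with FL in channel 2 and -0.50 ± 0.58 on the 12 with FL in channel 1 (SD). CYBB averaged -0.51 ± 0.44 and C1QC -0.32 ± 0.34 with FL in channel 2, against -0.38 ± 0.56 for CYBB and -0.26 ± 0.44 for C1QC with FL in channel 1. CSF1R averaged 0.06 ± 0.15 with FL in channel 2 and 0.15 ± 0.13 with FL in channel 1. CD74 averaged -0.10 ± 0.36 and -0.16 ± 0.29 in the same order, and MARCO -0.22 ± 0.45 and -0.04 ± 0.29. Each gene therefore had the same sign of its mean in both orientations. The linear model separated this part, a term common to both orientations, from the part that turns with the dye labels, which is the line ratio FL over LL if the deposited value is channel 2 over channel 1. A common term holds a dye effect if columns are ratios of fixed channels, or the line ratio if columns had been turned before deposit, and these cannot be told apart from the sources used here. For this reason the sign of a ratio is given and neither line is called higher.

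The first comparison turned the columns by the dye labels and averaged over ages. This compares FL and LL livers only if columns are ratios of fixed channels. If columns had been turned before deposit, a line difference would cancel here, and a lack of calls would say nothing of the lines. None of the 6 genes passed by limma after Benjamini-Hochberg adjustment over all features (adjusted p = 1.00 for each), and neither did any of the 14855 features (0%). At an unadjusted p under 0.05 there were 496 features, or 3.34%, and of the 6 genes only GPR183. Its line ratio averaged over ages was -0.20 ± 0.09 (SE), with this sign on 15 of 24 arrays and an unadjusted p of 0.0333 in limma. Once the column of 1 wk replicate 4 was turned, the value was -0.10 ± 0.13. The macrophage receptors had -0.09 ± 0.07 for MARCO and -0.04 ± 0.03 for CSF1R. For CYBB the value was -0.07 ± 0.10, for C1QC -0.03 ± 0.08 and for CD74 0.03 ± 0.05. With single arrays left out, CYBB ranged from -0.12 without 1 wk replicate 4 to -0.01 without 1 wk replicate 3, and C1QC from -0.07 without 5 wk replicate 4 to 0.0026, of opposite sign, without 7 wk replicate 1. The 95% confidence intervals of the averages extended by ± 0.06 for CSF1R, ± 0.11 for CD74, ± 0.16 for MARCO and for C1QC, ± 0.18 for GPR183 and ± 0.21 for CYBB. These p-values rest on the spread between arrays, each of which holds a different pair of birds. The model has 1 common term for all ages, so age differences common to both orientations enter this spread and can make the p-values too large. The 3.34% of features with an unadjusted p under 0.05 is also less than chance gives on average. A lack of calls here is therefore not evidence that the lines are alike.

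The common term gave another picture. It was negative for GPR183, CYBB and C1QC, and it was positive for CSF1R. GPR183 had -0.70 ± 0.09 (adjusted p = 1.58e-05), CYBB -0.44 ± 0.10 (adjusted p = 0.00243) and C1QC -0.29 ± 0.08 (adjusted p = 0.00603). CSF1R had 0.11 ± 0.03 (adjusted p = 0.00664), with this sign on 19 of 24 arrays. Hence 4 of the 6 genes passed, 3 of them with a negative and 1 with a positive term, while 37.6% of all features passed, 13.5% with a negative and 24.2% with a positive term. CD74 had -0.13 ± 0.05 (adjusted p = 0.0529) and MARCO -0.13 ± 0.07 (adjusted p = 0.174). Of all features, 0.175% had a more negative term than GPR183, 1.49% than CYBB and 3.86% than C1QC. The calls of GPR183, CYBB, C1QC and CSF1R were made with each of the 24 arrays left out in turn. CD74 passed without the 2 look-alike arrays (adjusted p = 0.0269) and with each array centred on its median (adjusted p = 0.0189).

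**Figure D2:**
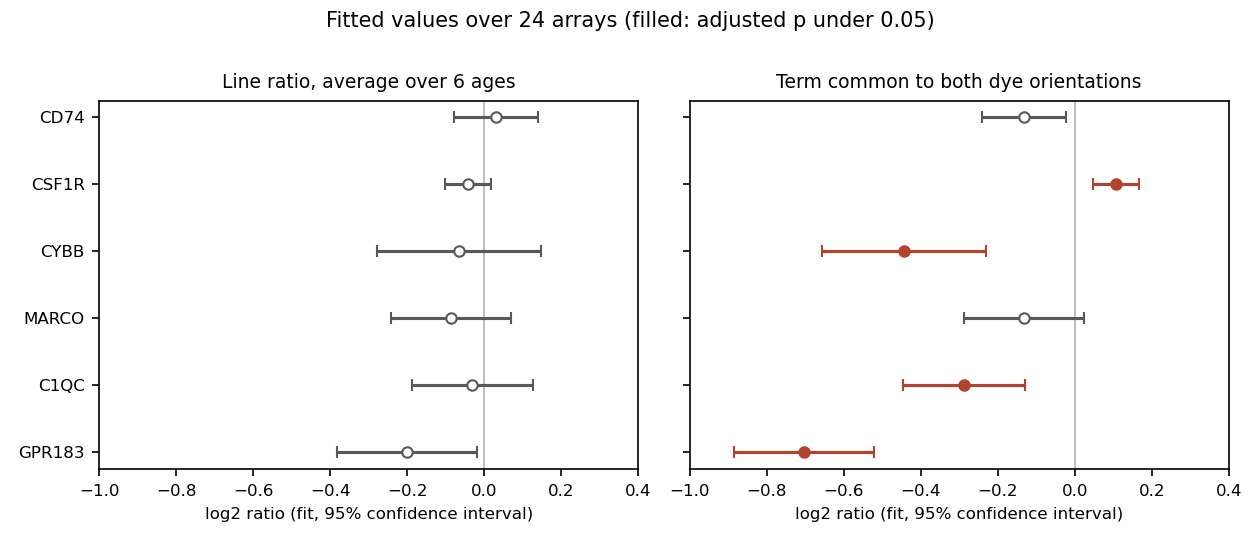
Fitted log2 ratio (x axis, point with 95% confidence interval) of the 6 genes over 24 arrays, for the line ratio averaged over ages (left) and the term common to both dye orientations (right), where filled points had an adjusted p under 0.05. No gene is filled on the left, and GPR183 (-0.70), CYBB (-0.44), C1QC (-0.29) and CSF1R (0.11) are filled on the right.

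At single ages, with columns turned by the dye labels, 0 of the 6 genes passed at any age. These values too are line ratios only if columns are ratios of fixed channels. Over all features the share that passed was 0% at 1, 3, 5 and 11 wk, 1.1% at 7 wk and 0.00673% at 9 wk. An unadjusted p under 0.05 was found only for GPR183 at 1 and 5 wk and for CD74 at 3 wk. Of all features, 0.464% had such a p at 1 wk, 0.828% at 3 wk and 1.17% at 5 wk. These shares are smaller than chance gives on average at that threshold, and the spread used also holds age differences common to both orientations. The array values of GPR183 at 1 and 5 wk and of CD74 at 3 wk are shown because of their small p. A separation of 2 arrays from 2 arrays was not tested. At 1 wk GPR183 had deposited ratios of -0.91 and -1.18 with FL in channel 2 and of 0.18 and 0.24 with FL in channel 1. Its line ratio was -0.63 ± 0.21, which had an unadjusted p of 0.00844 in limma and an adjusted p of 1.00. The value was -0.04 ± 0.32 with 1 wk replicate 4 turned. At 5 wk GPR183 had -1.05 and -1.44 with FL in channel 2 and 0.18 and -0.02 with FL in channel 1. The line ratio at 5 wk was -0.66 ± 0.21 (unadjusted p = 0.00585 in limma). At the other ages its line ratio lay between -0.09 and 0.23.

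For CD74 the small unadjusted p was at 3 wk. Its deposited ratios there were 0.05 and 0.47 with FL in channel 2 and -0.58 and -0.59 with FL in channel 1. The line ratio was 0.42 ± 0.13 (unadjusted p = 0.00361 in limma, adjusted p = 1.00). At 9 wk CD74 had the opposite sign, -0.24 ± 0.13. The line ratio of MARCO was 0.16 ± 0.18 at 3 wk and had the same sign on 4 of 4 arrays, as did the -0.31 ± 0.25 of CYBB at 5 wk, but neither passed. C1QC lay between -0.25 at 7 wk and 0.25 at 3 wk, and CSF1R between -0.13 at 9 wk and 0.04 at 1 and 5 wk. A moderated F test of differences in the line ratio between ages gave 0 calls among the genes and 0% among all features. CD74 had F = 3.22 and GPR183 F = 2.84 (adjusted p = 1.00 for both in limma, against 0.027 and 0.0424 unadjusted).

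Taken as deposited, without turning, the columns gave an average over ages whose values for these genes equal the common term. The balanced dye labels fix this in advance, and only the spread used differs. Calls for the same 4 genes, beside 41.3% of all features, are therefore not a separate result. By age, CYBB was the gene with the most calls. At 11 wk it had -0.87 and -0.69 with FL in channel 2 and -1.04 and -0.999 with FL in channel 1, and at 9 wk -1.04 and -1.11 with FL in channel 2 and -0.27 and -0.92 with FL in channel 1. All 8 values were thus below 0, whereas at 1 wk the arrays were at -0.33, 0.56, -0.30 and 0.46. From 1 to 11 wk the fitted values of CYBB were 0.10, -0.61, -0.09, -0.32, -0.83 and -0.90, each ± 0.17. It passed at 3 wk (adjusted p = 0.0362), at 9 wk (adjusted p = 0.00175) and at 11 wk (adjusted p = 0.00139), and its difference between ages passed as well (F = 5.71, adjusted p = 0.0434, beside 4.89% of all features). The calls at 9 and 11 wk were made with each array left out, whereas the call at 3 wk was lost without replicate 2, 3 or 4 of that age. Without replicate 3 its value at 3 wk was -0.37 (adjusted p = 0.374). The call between ages was made in 10 of 24 such fits. It was lost without replicate 3 or 4 of 1 wk, 2 or 4 of 3 wk, 1, 3 or 4 of 5 wk, 2 of 7 wk, 2, 3 or 4 of 9 wk, and 1, 2 or 3 of 11 wk (adjusted p up to 0.104), and its adjusted p was 0.0961 with 1 wk replicate 4 turned.

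GPR183 was negative at every age in the columns as deposited, from -0.42 at 1 wk to -0.98 at 3 wk, each ± 0.26. It passed at 3 wk, where the arrays had -1.23 and -0.75 with FL in channel 2 and -1.53 and -0.42 with FL in channel 1 (adjusted p = 0.029), and at 9 wk with -0.83 (adjusted p = 0.0332). The call at 3 wk was lost without any 1 array of that age (adjusted p up to 0.137), and that at 9 wk without replicate 1, 3 or 4 of 9 wk (adjusted p up to 0.128) and with 1 wk replicate 4 turned (adjusted p = 0.0549). C1QC passed at 9 wk, with -0.55 and -0.77 with FL in channel 2, -0.45 and -0.53 with FL in channel 1 and a fitted value of -0.57 ± 0.17 (adjusted p = 0.0215, up to 0.104 without replicate 2, 3 or 4 of that age). At 3 wk it had -0.51 ± 0.17 (adjusted p = 0.0716). CSF1R passed at 7 wk with 0.24 ± 0.06 (adjusted p = 0.0141), the age of the array with a median of 0.33. Without that array its value was 0.20 (adjusted p = 0.0683), and with arrays centred on their medians it was 0.15 (adjusted p = 0.119).

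MARCO had -0.36 ± 0.16 at 9 wk and -0.46 ± 0.16 at 11 wk (adjusted p = 0.0736), and CD74 had -0.41 ± 0.15 at 9 wk (adjusted p = 0.0619). The value of MARCO at 9 wk rested on replicate 4, which was at -1.24 while the other arrays of that age lay between -0.32 and 0.09, and without it the value was -0.09. In all, 2 of the 6 genes passed at 3 wk, 3 at 9 wk, 1 each at 7 and 11 wk and none at 1 or 5 wk. Of all features, 0.121% passed at 1 wk and 6.37% at 3 wk. At 5 wk the share was 0.074%, at 7 wk 23.6%, at 9 wk 16% and at 11 wk 10.4%.

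**Figure D3:**
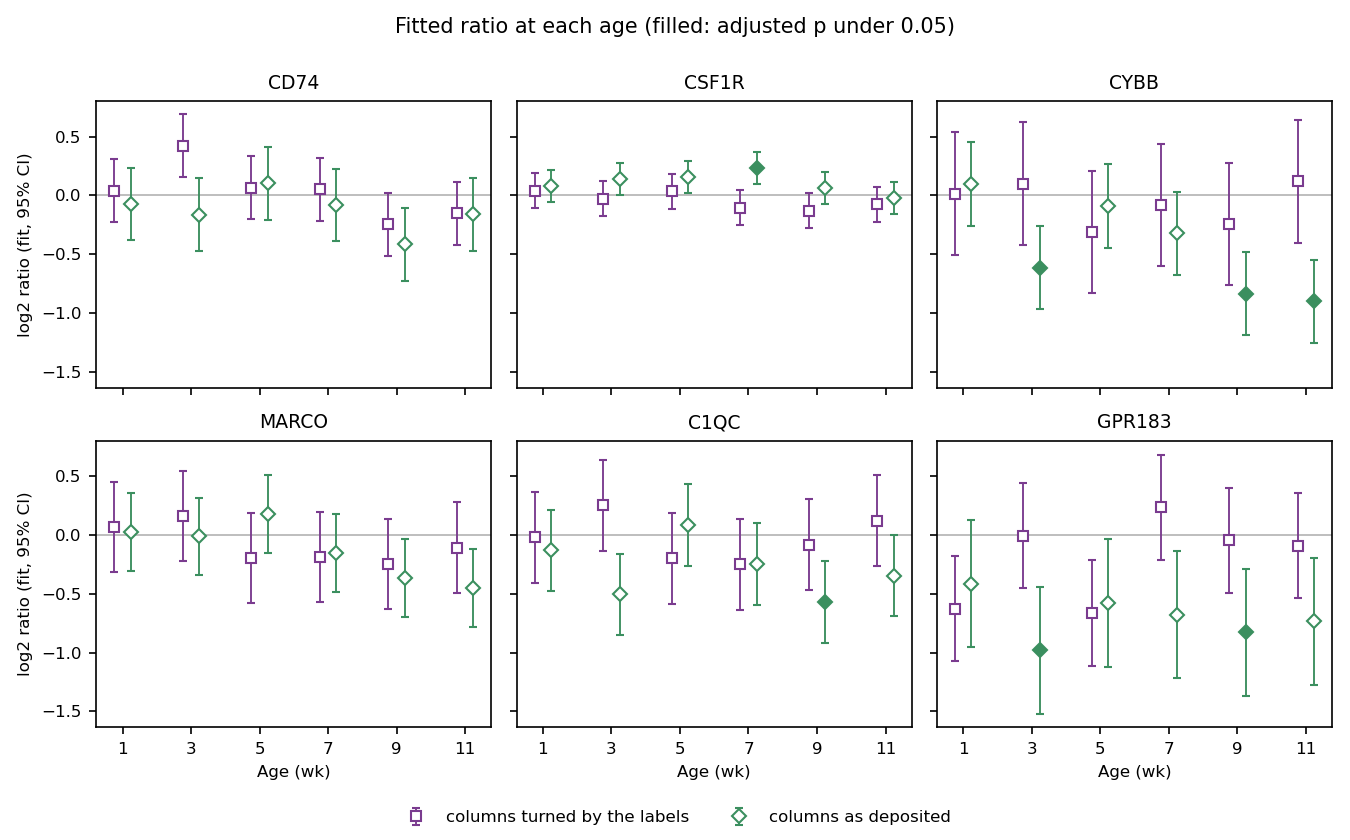
Fitted log2 ratio (y axis, point with 95% confidence interval) of each gene by age in wk (x axis), where squares stand for columns turned by the dye labels, diamonds for columns as deposited and filled symbols for an adjusted p under 0.05. No square is filled, and the filled diamonds of CYBB are -0.61, -0.83 and -0.90 at 3, 9 and 11 wk.

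The 5 probes of CD74 did not measure the same ratio. Probe a, probe c and probe e varied together, with r = 0.71 for a and c (adjusted p = 0.00099, permutation test), 0.66 for a and e over 23 arrays (adjusted p = 0.00213, permutation test) and 0.71 for c and e (adjusted p = 0.00099, permutation test). Their rank correlations were 0.74, 0.63 and 0.70 (adjusted p between 0.00132 and 0.00645, permutation test), and r without the 2 farthest arrays was 0.64, 0.50 and 0.62. Here and below, the 2 farthest arrays are those farthest from the median of the first-named probe or gene of a pair, so they differ between pairs. Probe a also went with probe b in rank (rank correlation 0.53, adjusted p = 0.0229, permutation test), with r = 0.37 on all arrays (adjusted p = 0.208, permutation test) and 0.50 without the 2 farthest. Probe d had r between -0.29 and 0.23 with the other probes, and only 3 of its 24 values were below 0, against 19 for probe a, 17 for probe c and 17 of 23 for probe e. The common term was -0.30 ± 0.08 for probe a (adjusted p = 0.00789), -0.48 ± 0.13 for probe c (adjusted p = 0.00924) and -0.25 ± 0.08 for probe e (adjusted p = 0.0249). It was 0.36 ± 0.08 for probe d (adjusted p = 0.00131) and 0.00 ± 0.03 for probe b, whose SD of 0.12 was the smallest of the 5. The CD74 mean joins probes of opposite sign, and its values near 0 hold both.

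**Figure D4:**
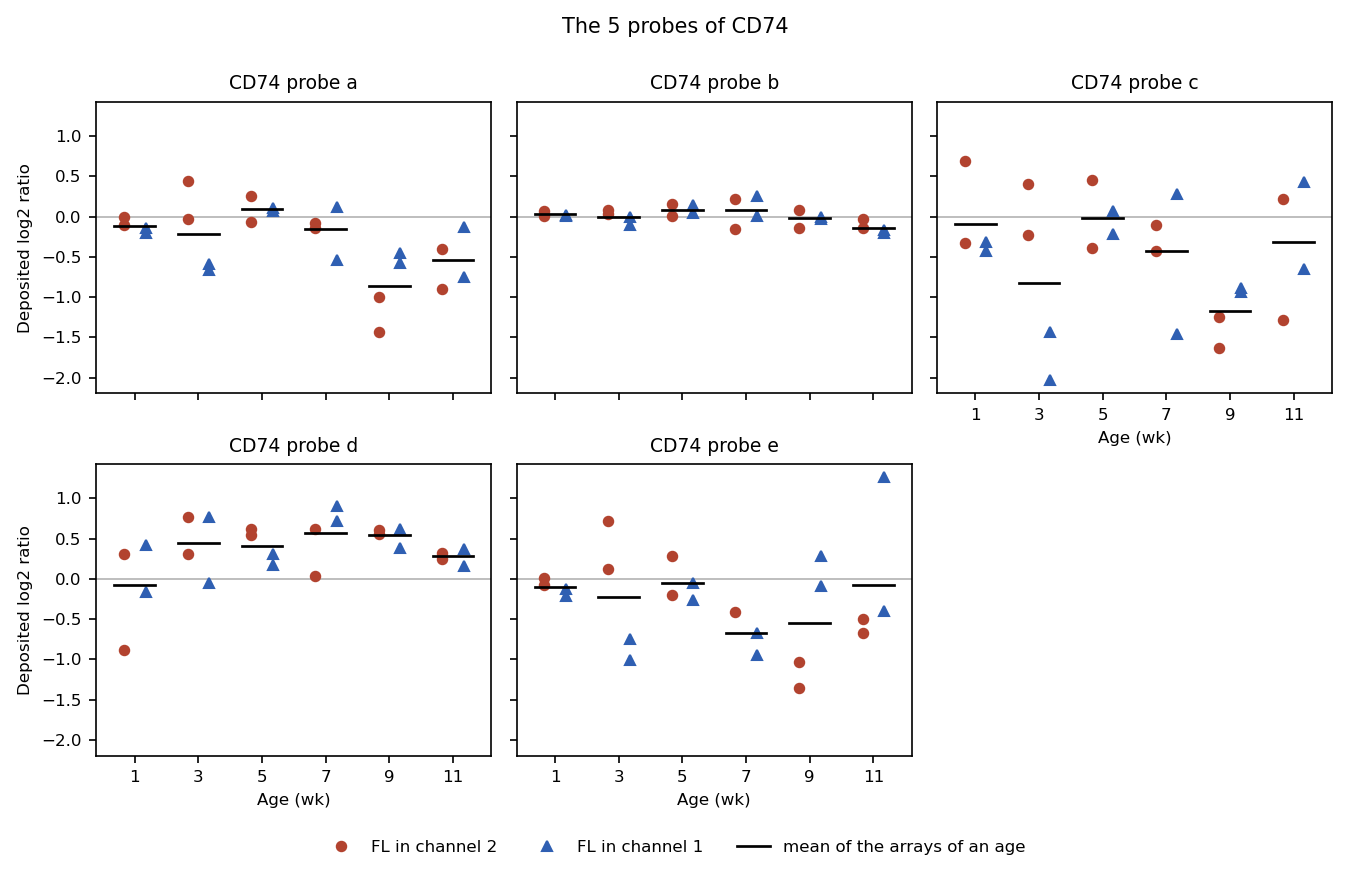
Deposited log2 ratio (y axis) of each CD74 probe on the 24 arrays (23 for probe e) by age in wk (x axis), with circles for FL in channel 2, triangles for FL in channel 1 and bars for the mean of an age. Probe c reaches down to -2.03, probe b stays within -0.21 and 0.25, and probe d lies above 0 on all but 3 arrays.

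The line ratio of CD74 at 3 wk also differed between its probes. It was 0.91 ± 0.33 for probe c, 0.64 ± 0.20 for probe e and 0.41 ± 0.20 for probe a, whereas probe d had 0.09 ± 0.19 and probe b 0.06 ± 0.07 (adjusted p = 1.00 for each in limma). At 9 wk probe e had -0.64 ± 0.20, and probe d 0.04 ± 0.19. In the columns as deposited at 9 wk, probe a had -0.87 ± 0.16 (adjusted p = 0.000785) and probe c -1.18 ± 0.32 (adjusted p = 0.013), while probe d had 0.54 ± 0.16 (adjusted p = 0.0255). CSF1R had its common term in both probes, with 0.11 ± 0.03 for probe a (adjusted p = 0.00883) and 0.10 ± 0.04 for probe b (adjusted p = 0.0459), although these correlated only weakly between arrays (r = 0.20, adjusted p = 0.473, permutation test). The remaining genes rest on 1 probe each.

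Other genes of macrophages and of antigen presentation, including the 6, were examined as lists. In the line ratio averaged over ages, 0 members of any list passed. The list medians lay between -0.03 and -0.01, as did that of all features (-0.01). Of all features 68.7% had a negative value, as had 10 of 13 macrophage genes, 4 of 8 genes of MHC class II presentation and 9 of 11 of MHC class I presentation. After CSF1R and MARCO the smallest p belonged to LGMN, a lysosomal protease (0.02 ± 0.03). In MHC class I presentation ERAP1, which trims peptides in the endoplasmic reticulum, had -0.13 ± 0.04 (unadjusted p = 0.00378 in limma) and TAP1, a subunit of the peptide transporter, 0.04 ± 0.03. In MHC class II presentation the smallest p belonged to RFXAP (-0.05 ± 0.04) and NFYC (0.04 ± 0.04), subunits of factors that bind class II promoters. At 7 wk alone, ERAP1 (adjusted p = 0.0479 in limma) and HSD3B7 of the oxysterol route to GPR183 (adjusted p = 0.0306 in limma) passed. Both were negative, beside 1.1% of all features, and that age holds the array with a median of 0.33.

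In the common term, 7 of 13 macrophage genes passed with a negative and 2 with a positive value, where 13.5% of all features were negative and 24.2% positive calls. Their median was -0.10, against 0.02 over all features. Beside CYBB and C1QC the negative ones were LAPTM5, a lysosomal membrane protein (-0.14 ± 0.05), CTSS, the protease that degrades the invariant chain (-0.11 ± 0.03), HMOX1, heme oxygenase (-0.11 ± 0.04), the receptor TLR2A (-0.10 ± 0.03) and LGMN (-0.08 ± 0.03). The positive ones were CSF1R and C1QA, another chain of C1q (0.07 ± 0.02). The third chain, C1QB, had -0.04 ± 0.03, so the C1q genes did not share a sign. The proteases of the C1 complex passed with negative values (C1R -0.27 ± 0.08 and C1S -0.29 ± 0.10), and C1QBP, a mitochondrial protein that binds C1q, with a positive one (0.16 ± 0.03). In MHC class II presentation 3 of 8 genes passed, all negative, beside 37.6% of all features in either direction and 13.5% with a negative value. They were the protease CTSB (-0.30 ± 0.05), the factor subunit NFYB (-0.13 ± 0.04) and CTSS. The class II beta chain BLB1 had 0.03 ± 0.03 (adjusted p = 0.472).

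In MHC class I presentation 4 of 11 genes passed, all negative, beside the same 37.6% and 13.5% of all features. They were B2M, the light chain (-0.30 ± 0.08), the chaperone PDIA3 (-0.22 ± 0.06), the proteasome subunit PSMB7 (-0.20 ± 0.05) and TAP1 (-0.14 ± 0.03). Of 4 phagocyte oxidase genes, CYBB was the only one called, and the others, RAC1 (0.05 ± 0.02), RAC2 (-0.03 ± 0.03) and HVCN1 (0.06 ± 0.03) were near 0. Among 8 scavenger and colony stimulating factor receptors with ligands, 4 passed with a positive value, beside 24.2% of all features. SCARA5, a ferritin receptor, was highest (0.78 ± 0.09), followed by SCARB2 (0.34 ± 0.06), CSF1R and COLEC12 (0.08 ± 0.03). STAB1 was called with -0.07 ± 0.03. Of the 3 genes of the oxysterol route, GPR183 was called, while CYP27A1 (-0.12 ± 0.05, adjusted p = 0.0631) and HSD3B7 (-0.02 ± 0.02), enzymes of sterol side chain and ring oxidation, were not.

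Markers of other liver cells were called in the common term too, where 37.6% of all features were called, and their part in the values above was not tested. Of 11 hepatocyte genes, 6 passed with a negative and 0 with a positive value, with APOH (-0.73 ± 0.11), APOB (-0.66 ± 0.16) and TTR (-0.59 ± 0.08) lowest and a list median of -0.23. Their medians on single arrays lay between -0.38 and 0.47 at 1 wk, between -0.51 and -0.39 at 9 wk and between -0.42 and -0.21 at 11 wk. In the columns as deposited, CYBB was called at 3, 9 and 11 wk, as were 6.37%, 16% and 10.4% of all features. The hepatocyte list was negative on every array of these ages, with medians from -0.61 to -0.23 at 3 wk, and a link was not tested. It was negative on every array of 5 wk as well, where CYBB was not called. Of 5 general leukocyte genes 1 passed in each direction (PTPN6 0.20 ± 0.04 and LCP1 -0.15 ± 0.04), and of 2 lymphocyte genes BTK passed (-0.10 ± 0.03). MMP9 was called among 3 heterophil genes (-0.13 ± 0.04). Beside 24.2% of all features with a positive and 13.5% with a negative value, positive values passed for 3 of 9 endothelial, 3 of 7 stellate cell, 2 of 3 bile duct and 2 of 3 erythrocyte genes, and negative ones for 1 endothelial and 1 stellate cell gene. No thrombocyte marker was measured. In the line ratio averaged over ages 0 genes of these lists passed.

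How the 6 genes varied together was examined over the 24 columns as deposited, for 15 pairs. CYBB, MARCO and C1QC formed a trio, with r = 0.67 for CYBB and C1QC, 0.66 for MARCO and C1QC and 0.65 for CYBB and MARCO (adjusted p = 0.00285 for each, permutation test). Their rank correlations were 0.66, 0.72 and 0.75 (adjusted p = 0.00335, 0.000825 and 0.0003, permutation test). Without the 2 arrays farthest from the median of the first-named gene r was 0.68, 0.62 and 0.69. Arrays extreme only in the second gene stayed in, as 9 wk replicate 4 with its MARCO value of -1.24 did for CYBB and MARCO. These 3 pairs passed with each array left out in turn. Arrays with low CYBB therefore tended to have low C1QC and low MARCO. These r and p-values, like those of the other pairs, take all arrays as a single set without regard to age. From 1 to 11 wk the fitted values went from 0.10 to -0.90 for CYBB, 0.03 to -0.46 for MARCO and -0.13 to -0.35 for C1QC. A course over ages that the genes share was not separated from differences between arrays of the same age.

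CSF1R went with MARCO (r = 0.59, adjusted p = 0.00866, permutation test), and CD74 went with C1QC (r = 0.52, adjusted p = 0.0272, permutation test) and with MARCO (r = 0.47, adjusted p = 0.0479, permutation test). The rank correlation was 0.43 for CSF1R and MARCO (adjusted p = 0.0956, permutation test), 0.55 for CD74 and C1QC (adjusted p = 0.0246) and 0.43 for CD74 and MARCO (adjusted p = 0.0956). Without the 2 farthest arrays, chosen by CSF1R or CD74 alone, r was 0.31 for CSF1R and MARCO, 0.51 for CD74 and C1QC and 0.23 for CD74 and MARCO. None passed. The r of CD74 and C1QC thus stayed near its value on all arrays, while CSF1R and MARCO, and CD74 and MARCO, rested in part on the arrays left out for that pair. Without 9 wk replicate 4 alone, 3 of the 15 pairs passed, and r was 0.48 for CSF1R and MARCO and 0.30 for CD74 and MARCO. The call of CD74 and C1QC was lost without 9 wk replicate 4, 3 wk replicate 3, 5 wk replicate 4 or 7 wk replicate 1, with r of at least 0.47 in each set, and CD74 and MARCO passed in 6 of 24 such sets. Without both look-alike arrays the call of CD74 and MARCO was lost (r = 0.45, adjusted p = 0.092, permutation test). With arrays centred on their medians, CD74 and C1QC (r = 0.47, adjusted p = 0.0598, permutation test) and CD74 and MARCO (r = 0.44, adjusted p = 0.074, permutation test) were lost. GPR183 passed with none of the other genes, with r between -0.19 with CSF1R and 0.18 with CYBB. The neighbours CD74 and CSF1R had r = 0.22. Each r of CD74 or CSF1R used the mean of the probes of the gene, and these probes did not all vary alike. The probes of CSF1R had r = 0.20 with each other, and on 9 wk replicate 4 probe a was at 0.11 and probe b at -0.44. An r of single probes with other genes is not given here.

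Over the 15 pairs the median r was 0.31, and 33.3% of pairs had r of at least 0.5. Without 7 wk replicate 1 the median was 0.20. Over all 107802586 pairs of 14684 features without a missing value the median with all arrays was 0.18 and the share 9.61%, so positive correlation was general on these arrays. Among all other features, 0.458% correlated with MARCO at least as well as C1QC did, and 0.512% as well as CYBB did. For CYBB the share was 2.75% with C1QC as partner. Within the 12 arrays with FL in channel 2, 0 of 15 pairs passed, and r was 0.50 for CYBB and C1QC, 0.57 for MARCO and C1QC and 0.52 for CYBB and MARCO. Within the 12 with FL in channel 1, these 3 pairs passed, with r = 0.77, 0.85 and 0.87 (adjusted p = 0.0197, 0.00435 and 0.00435, permutation test). Some other pairs differed in sign between FL in channel 2 and FL in channel 1, though none of them passed. GPR183 had r = -0.60 and 0.37 with C1QC, -0.26 and 0.51 with CD74, and -0.21 and 0.37 with CYBB. With MARCO it had -0.04 and 0.25, while with CSF1R both were negative (-0.19 and -0.49). CD74 and CSF1R had 0.62 and -0.24. CSF1R and MARCO had 0.72 and 0.30.

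With columns turned by the dye labels the pattern was partly different. The trio had 0.80 for CYBB and C1QC, 0.70 for MARCO and C1QC and 0.67 for CYBB and MARCO. Turning changes the sign of both genes on the same arrays, so the product of their values on an array is unchanged. That the r of the trio stayed positive was therefore largely set by the values as deposited and is not a separate test. GPR183 had r = 0.61 with CYBB and -0.66 with CSF1R, against 0.18 and -0.19 as deposited. CSF1R had 0.20 with MARCO (adjusted p = 0.383, permutation test), against 0.59 as deposited. With C1QC and CYBB it had -0.20 and -0.31, against 0.31 and 0.24 as deposited. Turning gives the common term of a gene opposite signs in the 2 orientations, so genes with large common terms correlate, with the sign of the product of these terms, by construction. After removal of the age terms signed by the dye labels and of the common term, GPR183 had 0.11 with CYBB and -0.10 with CSF1R. CSF1R had 0.58 with MARCO, 0.36 with C1QC and 0.25 with CYBB. The trio then had 0.66, 0.64 and 0.63. Differences between ages that are common to both orientations stay in these values, so an r free of them is not given.

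**Figure D5:**
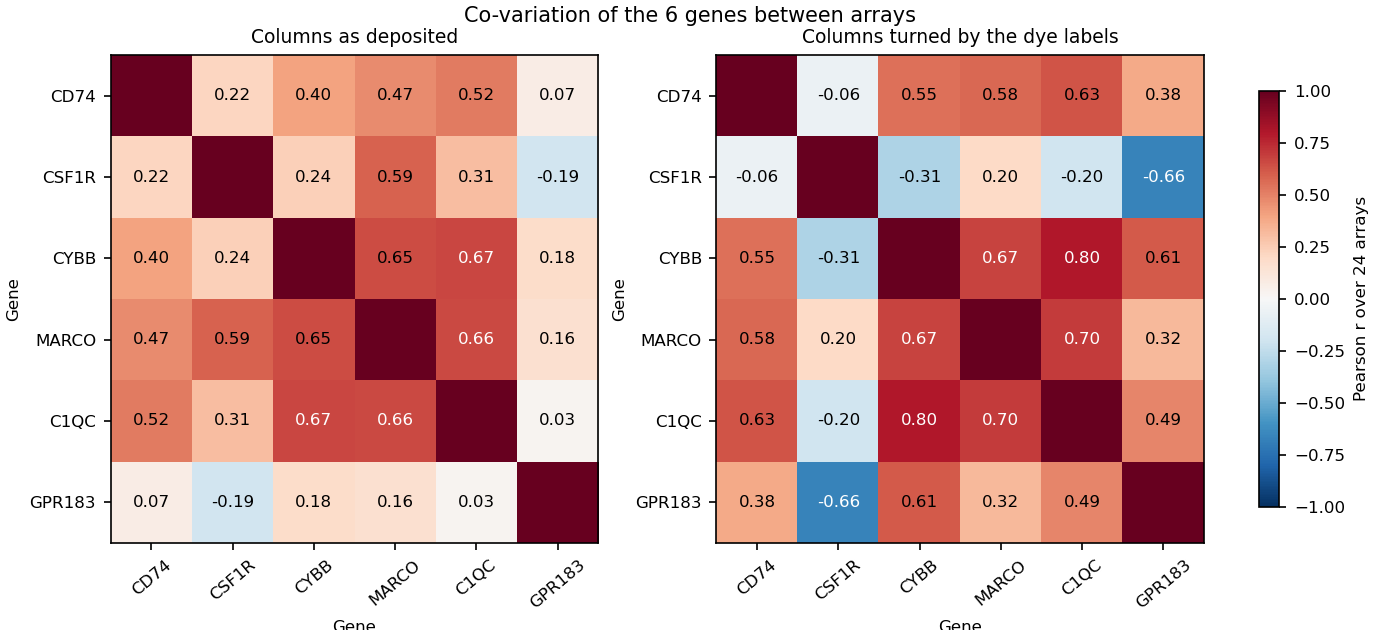
Pearson r over 24 arrays for each pair of the 6 genes, for columns as deposited (left) and turned by the dye labels (right), coloured from -1 (blue) to 1 (red). CYBB, MARCO and C1QC are above 0.6 with each other on both sides, while GPR183 lies between -0.19 and 0.18 on the left.

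The named genes most like each of the 6 over the 24 columns as deposited, chosen by the highest r among all genes with a symbol, are given as a description. For CD74 and CSF1R this r was taken with the mean of probes that did not all vary alike. For CYBB they were F9 (r = 0.92) and F2 (r = 0.88), clotting factors made in hepatocytes, with LOC771012 (r = 0.89) between them. For C1QC they were TUBA5 (r = 0.82), MATR3 (r = 0.81) and F7 (r = 0.80), of which F7 is again a clotting factor. GPR183 was most like GPX3, a secreted glutathione peroxidase (r = 0.86), MED27 (r = 0.75) and TTR, transthyretin (r = 0.66). CSF1R was most like HEXA, a lysosomal hexosaminidase (r = 0.83), ARPC1B of the actin nucleating complex (r = 0.79) and DIABLO (r = 0.79). MARCO was most like ISL1 (r = 0.82), the glycolytic enzyme TPI1 (r = 0.80) and the chloride transporter CLCN5 (r = 0.79). CD74 was most like SDHD of the respiratory chain (r = 0.75), CTSS (r = 0.75) and GNLY (r = 0.74). None of these genes came from the other 5, although CTSS belongs to the lists of macrophages and of MHC class II presentation.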

How the data were processed

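Liver RNA of FL and LL birds was hybridised to 24 two-colour arrays. The log2 ratios were used as deposited. The authors' log base, direction, background correction and normalization are not given in the sources used here, and log2 was taken because values run from -3.88 to 3.69. The paper supplied with the series describes other samples and was not used for methods. Symbols came from the probe annotation (10601 of 19200 spots, 8599 without). Probes that share a symbol were averaged. A feature needed values on 3 or more of the 4 arrays of every age (175 values were missing).

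Features were fitted in limma (version 3.58.1, R 4.3.3) with 6 age coefficients signed by the channel that held FL and 1 common term, and, for columns as deposited, with 6 unsigned age coefficients and 1 dye term. Two-sided p-values were adjusted by Benjamini-Hochberg over all 14855 features, with a threshold of 0.05. Correlations used 100000 permutations, two-sided, adjusted over 15 pairs of genes or 11 pairs of probes (scipy 1.17.1). The model was run on simulated data with independent noise. That noise held no age differences common to both orientations, so the run does not cover them. All 6 genes were named, with, from each list, the called members or the 2 of smallest p where none was called, and for each gene the 3 most alike. The text leaves out some of these, and names BLB1, C1QB and uncalled partners beyond the rule. The genes and lists were chosen with earlier results of these data known. The number of arrays limits precision. Alternatives covered turning, centring, scaling, array weights, single probes, filters, a replicate block and each array left out. The replicate numbers of the labels name samples within an age and tie the dye orientation to even and odd numbers.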

Additional observations from a re-analysis of the deposited data

Results flagged for a closer look

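Among 36 sets of 4 arrays (6 genes at 6 ages, columns as deposited), 2 held an array far from the other 3, where chance flags about 1 set in 20. MARCO at 1 wk was -0.15 on replicate 1 and between 0.07 and 0.11 on the other arrays. GPR183 at 7 wk was -0.11 on replicate 4 and between -0.92 and -0.78 on the others, and its fitted value at 7 wk was -0.95 without that array, against -0.68 with it. CYBB differed between ages in the columns as deposited, by limma's moderated F test (adjusted p = 0.0434), and this difference was called in 10 of the 24 fits that left out 1 array.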

How the results depend on the processing

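With columns taken as already turned, the average over ages called 4 of the 6 genes, beside 41.3% of all features. Its values equal those of the common term by design, so these calls are not a separate result. At 3 wk 2 genes were called (6.37% of all features), at 9 wk 3 (16%), and at 7 wk (23.6%) and 11 wk (10.4%) 1 each. The difference between ages called 1 gene (4.89%). Turned by the dye labels, each of these called 0 of the 6 genes. Of all features the turned calls were 1.1% at 7 wk, 0.00673% at 9 wk and 0% otherwise. With columns taken as already turned, the average was -0.13 for CD74 and 0.11 for CSF1R, of opposite sign to the turned values. At single ages the sign also differed, for instance at 3 wk for CD74 (0.42 turned and -0.16 as deposited), C1QC (0.25 and -0.51) and CYBB (0.10 and -0.61), and at 7 wk for GPR183 (0.23 and -0.68). Fitted alone, 5 wk called 1 gene (GPR183), and the share of all features in that fit is not given here. Single probes of CD74 differed in sign from their mean: probe d had -0.023 and probe e -0.0033 for the average, probe b 0.0048 and probe d 0.36 for the common term, and probe d 0.54 at 9 wk as deposited. The sign of the average of C1QC turned when 7 wk replicate 1 was left out (range -0.0669 to 0.0026).

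In the columns as deposited, the genes called at 7 wk were 0 with arrays centred, centred and scaled, or weighted, and those at 5 wk 1 with array weights. At 11 wk 2 were called with arrays centred and scaled or without both look-alike arrays. For the difference between ages 0 were called with 1 wk replicate 4 turned, with arrays centred and scaled, and with a replicate block, and 2 without both look-alike arrays. The shares of all features called in these settings are not given here, so these counts are not read as results about the genes. Leaving out 1 array gave 0 to 3 calls at 3 wk, 1 to 2 at 7 and 11 wk, 1 to 4 at 9 wk and 0 to 1 for the difference between ages. The number of called features moved as well, from 22 to 2165 at 3 wk and from 2243 to 3717 at 7 wk. It ran from 1593 to 3288 at 9 wk, from 931 to 2288 at 11 wk and from 403 to 1304 for the difference between ages. For the pairs, the median r was 0.49 with columns turned and 0.20 to 0.37 with 1 array left out, and 0, 3 and 3 pairs passed with FL in channel 2, with FL in channel 1 and without the 2 farthest arrays, and 3 to 7 with 1 array left out.

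The replicate block (consensus correlation -0.06 turned and -0.04 as deposited) called CD74 in the common term (adjusted p = 0.0197) and lost CYBB between ages (adjusted p = 0.0525). The replicate numbers only name arrays and tie the dye orientation, so they pair no birds across ages. The causes of these changes were not tested. Leaving out 1 array both lowers the number of arrays and removes the values of that array, and these were not separated. The main limits are the unstated direction of the columns, the single probe behind 4 of the genes, and 4 arrays per age.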
